A study of Mus musculus with 4 samples.

Results

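The genes described here are 10 genes of antigen presentation on MHC class I, chosen by symbol: H2-K1, H2-D1, B2m, Tap1, Tap2, Tapbp, Psmb8, Psmb9, Psmb10 and Nlrc5. They are 10 of the 24346 gene symbols in the tables, and none of them was at 0 in any library. RNA was sequenced from the liver of male ob/ob mice, which lack leptin and become obese, and the mouse strain behind the ob/ob mutation is not named in the labels. From 6 weeks of age the mice were fed for 4 weeks with a chow diet (CD), CD with 0.01% 7-ketocholesterol (CD+7KC), a high fat western type diet (WD) or WD with 0.01% 7KC (WD+7KC), and cholesterol made up 1% of all these diets, so that CD is a chow enriched in cholesterol and not plain chow. Each group was 1 library, and the number of mice behind a library is not given. No difference between groups could therefore be tested against the variation between mice, no p-value is given, and every comparison below is between 2 libraries.

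Nearly every nucleated cell shows peptides from its own proteins on MHC class I molecules, which CD8 T cells and NK cells inspect. Proteins are cut by the proteasome, in which the inducible subunits encoded by Psmb8, Psmb9 and Psmb10 can replace the constitutive catalytic subunits encoded by Psmb5, Psmb6 and Psmb7. Peptides are pumped into the endoplasmic reticulum by the transporter made of Tap1 and Tap2, and tapasin (Tapbp) holds the transporter beside the heavy chains encoded by H2-K1 and H2-D1, which pair with the light chain β2-microglobulin (B2m). Interferon-γ raises these genes in many cell types, and Nlrc5 encodes a transactivator of class I genes that acts through the X and Y boxes of their promoters. In the liver, hepatocytes, endothelial cells, Kupffer cells and lymphocytes all carry class I, so that in whole tissue a change in the share of a cell type and a change in RNA per cell cannot be told apart.

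Of the 10 genes, 7 lie on chromosome 17, in the MHC and beside it, 2 lie on chromosome 8 and 1 on chromosome 2 (RefSeq positions, GRCm38.p6, the build that mm10 corresponds to). The heavy chain genes are H2-K1 (17, 33996012 to 34000619) and H2-D1 (17, 35263094 to 35267497), and Tapbp lies at 17, 33919478 to 33929290. Psmb9 (17, 34182030 to 34187330), Tap1 (17, 34187556 to 34197225), Psmb8 (17, 34198195 to 34201454) and Tap2 (17, 34204479 to 34216321) sit side by side within 34292 bases. Psmb9 and Tap1 point away from each other, and their start sites are 226 bases apart. B2m is at chromosome 2, 122147687 to 122153082, Psmb10 at chromosome 8, 105935728 to 105938392, and Nlrc5 at chromosome 8, 94434335 to 94527272.

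The promoter stretches of the genes for both chains of the class I molecule are shown because they carry the boxes through which the family is known to be controlled. RefSeq promoter windows (GRCm38.p6) were in the reference for 8 of the 10 genes, Tap2 and Nlrc5 being the others. The stretches are written 5′ to 3′ on the strand of the gene and end before an annotated start site. H2-K1 has 2 RefSeq mRNAs with different starts, and the downstream start was used, so that its stretch lies within the span given above for the gene. Capitals mark, on either strand, matches to the κB consensus, to the core of interferon regulatory factor sites (TTTCNNTT), and to a pair of boxes, TGACG (the core of the X2 box) and ATTGG (the Y box, an inverted CCAAT), with 20 bases between them. The spacing of this pair was chosen after the sequences had been seen.
H2-K1, chr17:34000353-34000464, minus strand: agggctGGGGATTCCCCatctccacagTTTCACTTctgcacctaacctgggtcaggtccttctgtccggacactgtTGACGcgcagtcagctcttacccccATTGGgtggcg
H2-D1, chr17:35262917-35263028, plus strand: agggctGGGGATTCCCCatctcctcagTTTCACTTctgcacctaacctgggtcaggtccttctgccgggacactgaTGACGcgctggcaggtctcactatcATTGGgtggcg
B2m, chr2:122147544-122147644, plus strand: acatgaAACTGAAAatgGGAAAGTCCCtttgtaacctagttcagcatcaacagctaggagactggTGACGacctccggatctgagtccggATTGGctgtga

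The stretches of H2-K1 and H2-D1 were the same at 101 of 112 bases (90.2%), with each box at the same distance from the next. B2m, on another chromosome, carried the same boxes, with the interferon regulatory factor core upstream of the κB match. The pair TGACG and ATTGG at this spacing was found in the 250 bases before the start of 3 of the 8 genes (H2-K1, H2-D1 and B2m) and in 23 of 17191 genes of the tables with a promoter window (0.134%). Because the spacing was chosen after these sequences had been seen, setting the 3 matches beside this share is not a test. A κB match was present in the same 3 of 8 genes and in 4.91% of all genes, and the TTTCNNTT core in the same 3 and in 22.5% of all genes. The interferon-γ activated site TTCNNNGAA was found in Psmb8 and in 7.93% of all genes. These are matches of letters in a fixed window, and binding was not measured.

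**Figure D1:**
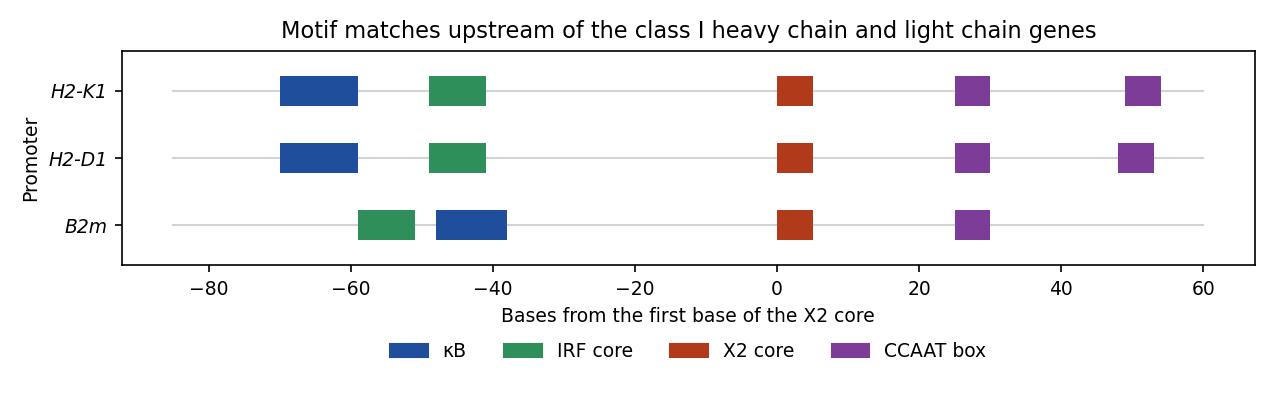
Matches to the κB consensus (blue), the TTTCNNTT core (green), TGACG (the X2 core, red) and CCAAT on either strand (purple) before the start sites of H2-K1, H2-D1 and B2m, with the horizontal axis in bases from the first base of the X2 core. H2-K1 and H2-D1 have the same order and spacing up to the Y box, while in B2m the green and blue boxes are exchanged.

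Psmb9 and Tap1 share the 225 bases between their start sites, shown next because the pair is read from it in opposite directions. The log2 fold changes of Tap1 and Psmb9 were 0.58 and 0.56 in WD relative to CD, 0.52 and 0.28 in WD+7KC relative to CD+7KC, 0.33 and 0.18 in CD+7KC relative to CD, and 0.27 and -0.095 in WD+7KC relative to WD. Capitals mark TGACG and CCAAT, which on either strand occur in 23.1% and 38.9% of all genes with a promoter window. The pair of TGACG and ATTGG at the spacing above was not found here.
Tap1 and Psmb9, chr17:34187331-34187555, strand of Tap1: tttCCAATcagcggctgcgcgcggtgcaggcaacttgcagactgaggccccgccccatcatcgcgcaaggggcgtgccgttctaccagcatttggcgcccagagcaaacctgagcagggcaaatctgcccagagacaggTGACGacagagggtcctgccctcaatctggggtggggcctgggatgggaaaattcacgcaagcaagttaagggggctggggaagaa

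Levels are in FPKM, the fragments of a gene divided by its exon length and by the size of the library, so that genes can be compared with each other. Where 4 values follow a gene below, they stand for chow, chow with 7KC, western diet and western diet with 7KC, in this order. The genes spanned a wide range. B2m was at 2508, 2662, 2858 and 2813 FPKM, and ranked between 25 and 36 among all genes of a library. H2-K1 followed with 787, 783, 811 and 767 FPKM, and H2-D1 with 335, 362, 478 and 478 FPKM. The light chain thus stood above the sum of both classical heavy chains in every library, by factors of 2.23, 2.33, 2.22 and 2.26. H2-Q10, which encodes a class I heavy chain secreted by hepatocytes, was itself at 2153, 2124, 2562 and 2096 FPKM, so that with it the heavy chains exceeded B2m.

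The genes for peptide supply were far lower. Tapbp was at 21.9, 25.3, 35.5 and 39.2 FPKM. Psmb10, Psmb9 and Psmb8 stood at 15.4, 14.1 and 13.8 FPKM in CD, and the order of these 3 genes differed between libraries, with Psmb8 the highest of them in CD+7KC and Psmb10 in WD+7KC. Below them came Tap2, at 6.11, 6.21, 9.74 and 10.6 FPKM, and Tap1, at 5.22, 6.61, 7.88 and 9.50 FPKM. Tap1 was at 85.4%, 106%, 80.9% and 90.0% of Tap2. It stood above Tap2 only in CD+7KC, where Tap1 and Tap2 rested on an estimated 175 and 221 reads, too few to read an order from so small a difference. Nlrc5 was the lowest in every library, with 1.82, 2.55, 1.72 and 1.62 FPKM.

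**Figure D2:**
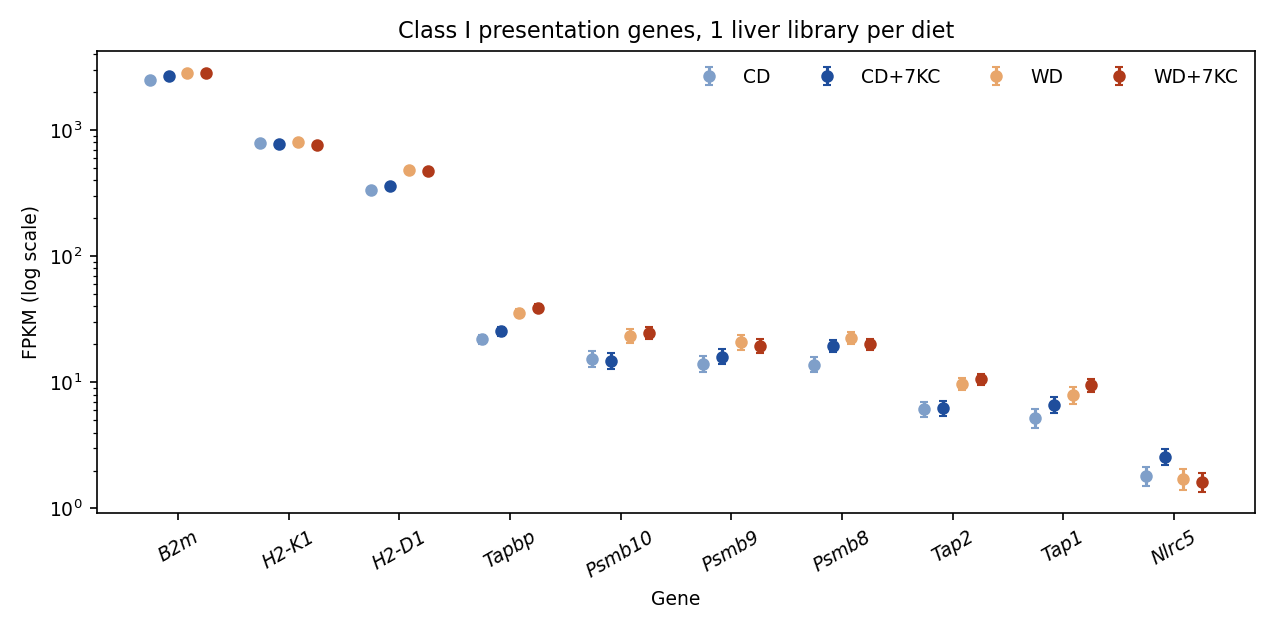
FPKM (log scale) of the 10 genes in the 4 libraries, 1 point per library; the bars are exact 95% Poisson intervals of the estimated reads and cover counting error only. B2m, H2-K1 and H2-D1 lie at 335 FPKM or more in all 4 libraries, the genes of peptide supply between 5.22 and 39.2 FPKM, and Nlrc5 between 1.62 and 2.55 FPKM.

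The files hold FPKM without read counts. In genes with only 1 RefSeq mRNA the low values rise in steps that each stand for 1 read, and these steps gave estimates of 10900000, 10980000, 9400000 and 12080000 mapped fragments. With these depths, 73.5% to 74.7% of the low values came within 0.1 read of a whole read. By this estimate Nlrc5 rested on 109 to 189 reads, Tap1 on 137 to 277, Psmb8 on 215 to 345 and B2m on 17732 to 22426. The exact (Clopper-Pearson) 95% intervals given below for log2 fold changes come from these reads and cover counting error only, not the variation between mice. Related genes can share reads. Of the 75-base windows (the read length) in its mRNAs, 6.90% of H2-D1, 1.45% of H2-K1 and 0.967% of Tapbp occurred in another gene, and none did for the other 7 genes. Near matches were not counted, and how the authors' mapping treated them is not stated, so that the split between H2-K1, H2-D1 and related class I genes is less certain than the intervals show. The labels do not give the H2 haplotype of the mice, and whether it is that of the reference genome, and its part in the values of H2-K1, H2-D1 and the H2-Q genes, was not tested.

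Western diet without 7KC was compared with CD to see what the diet alone was accompanied by. In WD, 9 of the 10 genes were higher than in CD, where 50.9% of all genes were, and Nlrc5 was not. The median log2 fold change of the 10 genes, computed as the log2 ratio of FPKM + 0.1, was 0.57, against 0.010 over all 15597 genes above 0 in either library. Above 1.5-fold were 4 of the 10 genes (Psmb8, Tapbp, Tap2 and Psmb10), where 13.5% of all genes were above 1.5-fold higher, and 0 were above 1.5-fold lower, where 10.8% of all genes were. Past 2-fold in either direction were 0 of the 10, where 9.69% of all genes were. Among genes with at least 1 FPKM in either library, which all 10 are, 9.22% were above 1.5-fold higher, 7.55% lower and 5.54% past 2-fold.

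Along the pathway the change in WD relative to CD was uneven. Psmb8 had the highest log2 fold change, 0.70 (counting interval 0.45 to 0.96), from 13.8 to 22.5 FPKM. Tapbp had 0.69 (0.54 to 0.85), Tap2 0.66 (0.42 to 0.93), Psmb10 0.59 (0.30 to 0.87), Tap1 0.58 (0.27 to 0.93) and Psmb9 0.56 (0.27 to 0.85). The intervals of these 6 genes overlap, so that no order among them can be read at this depth, and Psmb10 and Tap1 lay just inside and just outside the 1.5-fold line. H2-D1 had 0.51 (0.47 to 0.56), while the other heavy chain, H2-K1, had 0.043 (0.005 to 0.082) and B2m 0.19 (0.16 to 0.22). H2-D1 was accordingly at 42.6%, 46.2%, 59.0% and 62.3% of H2-K1 in the 4 libraries. The transactivator Nlrc5 had -0.074 (-0.45 to 0.30), and a difference between CD and WD was not detectable at this depth.

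With 7KC in both diets, the western diet showed a similar list with exceptions. In WD+7KC relative to CD+7KC, 8 of the 10 genes were higher, where 50.2% of all genes were. Their median log2 fold change was 0.34, against 0.003 over all genes. Above 1.5-fold higher were 3 of the 10, Tap2 at 0.76 (0.53 to 1.01), Psmb10 at 0.73 (0.47 to 1.01) and Tapbp at 0.63 (0.49 to 0.77), where 17.5% of all genes were. Above 1.5-fold lower was 1 of the 10, Nlrc5 at -0.62 (-0.99 to -0.33), where 11.4% of all genes were, and past 2-fold in either direction were 0 of the 10, where 12.6% of all genes were. Of genes with at least 1 FPKM in either library, 13.5% were above 1.5-fold higher, 8.75% lower and 9.37% past 2-fold. Psmb8 had 0.045 (-0.18 to 0.27) here, with CD+7KC at 19.4 FPKM and WD+7KC at 20.02 FPKM. Tap1 had 0.52 (0.25 to 0.81), H2-D1 0.40 (0.36 to 0.44), Psmb9 0.28 (0.018 to 0.56), B2m 0.080 (0.052 to 0.11) and H2-K1 -0.029 (-0.065 to 0.007). With the libraries rescaled to equal FPKM sums (TPM), the median of genes with at least 1 FPKM in all libraries moved from -0.034 to 0.17, the number of class I genes above 1.5-fold higher from 3 to 5, where the share of all genes moved from 17.5% to 23.8%, and Nlrc5 to -0.43, short of 1.5-fold.

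Adding 7KC to CD was accompanied by smaller differences. In CD+7KC relative to CD, 8 of the 10 genes were higher, where 49.3% of all genes were. Their median log2 fold change was 0.15, against -0.001 over all genes. The number above 1.5-fold was 0 in the upward direction, where 10.4% of all genes were, and 0 in the downward direction, where 7.11% were, and 0 were past 2-fold, where 6.75% of all genes were. For genes with at least 1 FPKM in either library these shares were 4.92%, 3.44% and 2.65%. The highest values were those of Psmb8, 0.48 (0.23 to 0.75), and Nlrc5, 0.47 (0.17 to 0.83), followed by Tap1, 0.33 (0.012 to 0.68), and Tapbp, 0.21 (0.046 to 0.37). H2-D1 had 0.11 (0.062 to 0.16) and B2m 0.086 (0.057 to 0.12). The intervals of H2-K1, Tap2, Psmb9 and Psmb10 included 0. This comparison and that of WD with CD share the CD library, in which 7 of the 10 genes had their lowest value.

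Adding 7KC to WD left the class I genes close to the middle of all genes. In WD+7KC relative to WD, 4 of the 10 genes were higher and 6 lower, with a median log2 fold change of -0.013 against 0.002 over all genes. The number above 1.5-fold was 0 upward, where 14.2% of all genes were, and 0 downward, where 6.86% were, and 0 were past 2-fold, where 9% of all genes were. Of genes with at least 1 FPKM in either library, the like of these 10, 9.15% were above 1.5-fold higher, 3.42% lower and 4.71% past 2-fold. The values of the class I genes ran from 0.27 (-0.008 to 0.55) for Tap1 to -0.17 (-0.40 to 0.058) for Psmb8. Only the interval of Tapbp, 0.14 (0.010 to 0.27), lay above 0 and only that of H2-K1, -0.081 (-0.12 to -0.043), below it. Tapbp stayed above 0 under every scaling. H2-K1 was at -0.034 with upper quartile scaling, -0.042 with median-ratio scaling and 0.14 with equal sums. Scaling matters here because the FPKM values of WD+7KC summed to 602059 and those of WD to 699534. Rescaling to equal sums put the median of the 9917 genes with at least 1 FPKM in all libraries at 0.17 instead of -0.041. All 10 class I genes were then higher, as were 73.0% of all genes (50.2% with the deposited values), with a median of 0.20 against 0.21 over all genes.

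**Figure D3:**
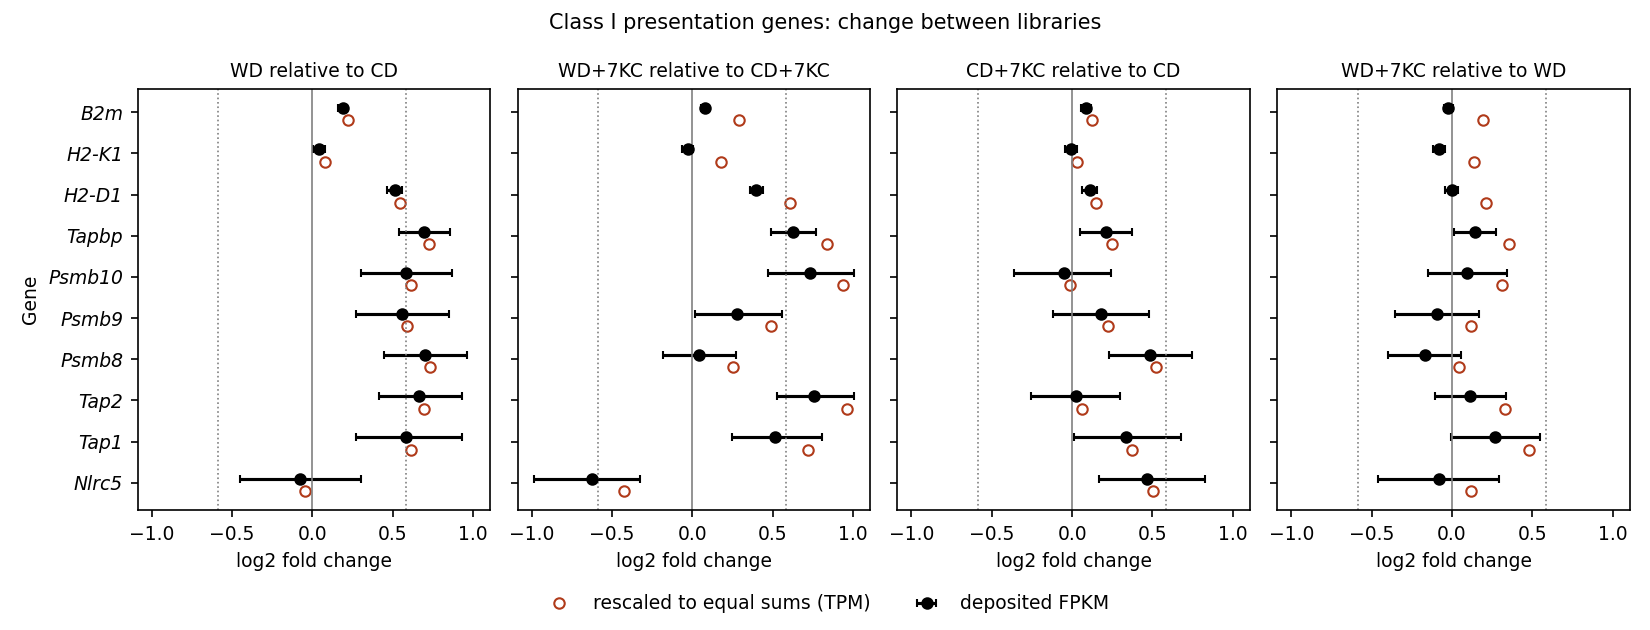
Log2 fold changes of the 10 genes in 4 comparisons between single libraries, from the deposited FPKM + 0.1 with counting intervals (black) and after rescaling to equal sums (open red circles); dotted lines mark 1.5-fold. In WD relative to CD 7 genes lie between 0.51 and 0.70, whereas in WD+7KC relative to WD the black points lie between -0.17 and 0.27.

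The inducible proteasome subunits were set against the constitutive subunits whose place they take. As a percentage of Psmb5, Psmb8 was at 6.87%, 10.4%, 9.81% and 10.2% in the order of libraries given above. Psmb9 was at 9.87%, 10.99%, 15.2% and 14.9% of Psmb6, higher in both western diet libraries than in both chow libraries. Psmb10 was at 6.45%, 6.47%, 11.3% and 13.3% of Psmb7, with the same split. These percentages do not depend on the scaling of a library. Summed, the inducible subunits made up 6.92%, 8.21%, 10.4% and 11.1% of the FPKM of all 6 catalytic subunits. The low value of Psmb8 was that of CD alone, whereas Psmb10 was low in both chow libraries. The 14 genes of the constitutive core particle stood at a median of -0.001 (log2) in WD relative to CD, with none past 1.5-fold, and -0.24 in WD+7KC relative to WD, where 14 of 14 were lower, or -0.022 with equal sums. Of 7 genes for proteasome activators and assembly factors, Psme1, which encodes a subunit of the interferon-inducible activator PA28, was at 104 FPKM in CD and 138 in WD. None of these 7 was past 1.5-fold in WD relative to CD (median 0.11) or in WD+7KC relative to WD, where values ran from -0.28 for the assembly chaperone gene Psmg1 to -0.055 for Psme4. Their median there was -0.11, or 0.11 with equal sums, so that the direction of this list turned with the scaling.

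**Figure D4:**
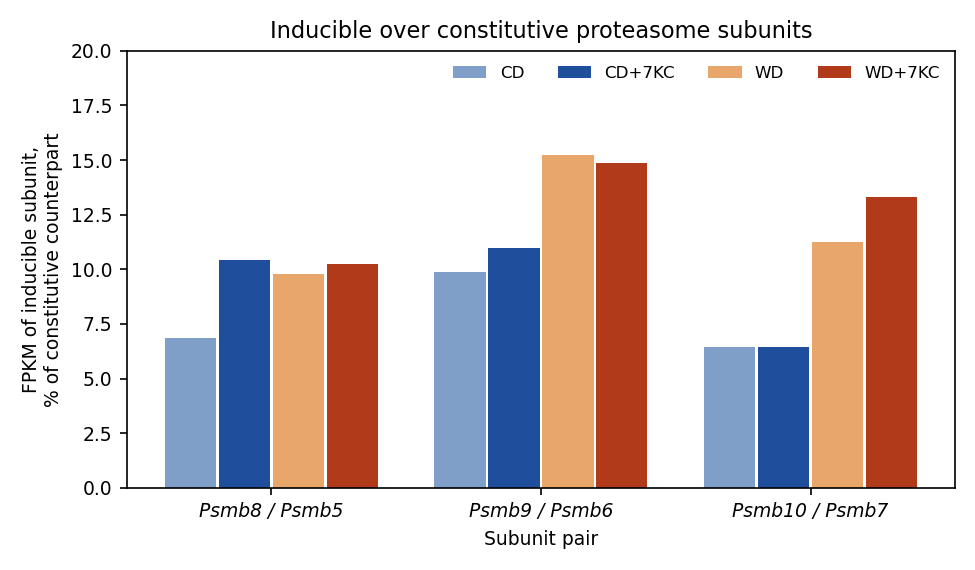
FPKM of Psmb8, Psmb9 and Psmb10 as a percentage of the constitutive subunit each replaces (bars from 0, 1 library per bar, no replicates). All bars lie between 6.45% and 15.2%, with the CD bar the lowest in each pair.

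Other genes of the pathway were taken from fixed lists, counting those with at least 1 FPKM on average. Of 14 other class I and class I-like genes, 5 were above 1.5-fold higher and 0 lower in WD relative to CD, with a median log2 fold change of 0.30. H2-Q1 was at 17.2 FPKM in CD and 31.0 in WD, and H2-Q7 at 6.97 and 12.2, although 16.6% and 22.6% of their 75-base windows occur in other genes. In WD+7KC relative to WD the median of these 14 genes was 0.030, from 1.40 for H2-T24 (0.694 and 1.99 FPKM) to -0.80 for H2-T22 (13.7 and 7.83 FPKM, with 26.1% of its windows shared). H2-Q10 had 0.25 in WD relative to CD and -0.29 in WD+7KC relative to WD, the latter -0.073 after rescaling. The 11 genes of peptide trimming and loading had a median of -0.15 in WD relative to CD and -0.035 in WD+7KC relative to WD. In the former 3 of the 11 were higher, of which 1 above 1.5-fold, Tapbpl, which encodes the tapasin-related protein TAPBPR, with 8.89 FPKM in CD and 13.4 in WD, while the lowest was the aminopeptidase gene Lnpep, with 2.55 and 1.08 FPKM. In WD+7KC relative to WD the same Lnpep was the highest (0.97), and Sec61b, a subunit of the protein channel of the endoplasmic reticulum, the lowest (-0.34). The chaperone genes Calr and Canx were within 0.1 of 0 in both comparisons with the deposited values. In WD+7KC relative to WD, equal sums put Calr at 0.29 and Canx at 0.18. The medians there became 0.25 for the 14 class I and class I-like genes and 0.18 for the 11 genes of trimming and loading.

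The regulators did not move as a block. Irf1, the interferon-inducible factor that binds class I and Tap1 promoters, was at 8.79, 7.75, 12.8 and 18.3 FPKM. Rfx5, a partner of Nlrc5 at the X box, was at 2.50, 2.22, 1.48 and 2.12 FPKM, and Ciita, the class II counterpart of Nlrc5, at 0.0731, 0.329, 0.574 and 0.678 FPKM. Interferon-γ itself (Ifng) was listed at 0 in CD, CD+7KC and WD and at 0.164 FPKM in WD+7KC. In WD+7KC 1 FPKM stood for an estimated 12.1 reads per kilobase of mRNA. Values as low as that of Ifng, or that of Ciita in CD, thus rest on few reads, and a difference of Ifng from 0 cannot be read at this depth. Over 18 genes of class I transcription the median log2 fold change was -0.12 in WD relative to CD. In WD+7KC relative to WD it was 0.26, or 0.48 with equal sums. Irf8 was the highest (1.07) and Nfyb the lowest (-0.39) there with the deposited values. Of 10 genes for interferon receptors and feedback, 1 was above 1.5-fold higher in WD relative to CD (Usp18, an inhibitor of interferon signalling, from 2.78 to 8.56 FPKM), and in WD+7KC relative to WD values ran from 0.63 for Socs3 to -0.19 for Ifngr2. Of 16 interferon-inducible genes, Psmb8 included, 7 were above 1.5-fold higher in WD relative to CD (median 0.53) and 5 in WD+7KC relative to WD (median 0.27, from 1.10 for the chemokine gene Cxcl9 to -0.30 for the GTPase gene Iigp1).

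Markers of cell types were given beside these values because class I is carried by all of them. The hepatocyte markers were present in all libraries, with Alb between 30014 and 35981 FPKM, and had medians of -0.20 in WD relative to CD and -0.23 in WD+7KC relative to WD (-0.014 after rescaling), the latter from 0.066 for Apob to -0.60 for Apoa1. The summed FPKM of 17 leukocyte markers was 142, 229, 249 and 480, and of 13 with at least 1 FPKM on average, 8 were above 1.5-fold higher in WD relative to CD and 11 in WD+7KC relative to WD, from 1.55 for Adgre1 to -0.089 for S100a9. The 8 endothelial markers summed to 74.4, 102, 56.2 and 149 FPKM, and 8 of 8 were above 1.5-fold higher in WD+7KC relative to WD, from 1.95 for Kdr to 0.81 for Egfl7. The 15 genes of class I receptors and other markers of T and NK cells summed to only 1.91, 3.21, 11.1 and 9.81 FPKM, with 4, 3, 2 and 1 of the 15 at 0 and with Cd8a at 0.0626, 0.0312, 0.401 and 0.227 FPKM. In WD relative to CD, 9 of the 10 class I genes and 11 of the 13 leukocyte markers were higher, where 50.9% of all genes were. The exceptions among the leukocyte markers were S100a8 at -1.35 and S100a9 at -0.055. Of the endothelial markers, 7 of 8 were lower, 3 of them above 1.5-fold. In WD+7KC the leukocyte and endothelial markers had medians of 0.93 and 1.52 relative to WD, and the class I genes one of -0.013. With equal sums these medians were 1.14, 1.73 and 0.20. The part of cell shares in these values was not tested.

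**Figure D5:**
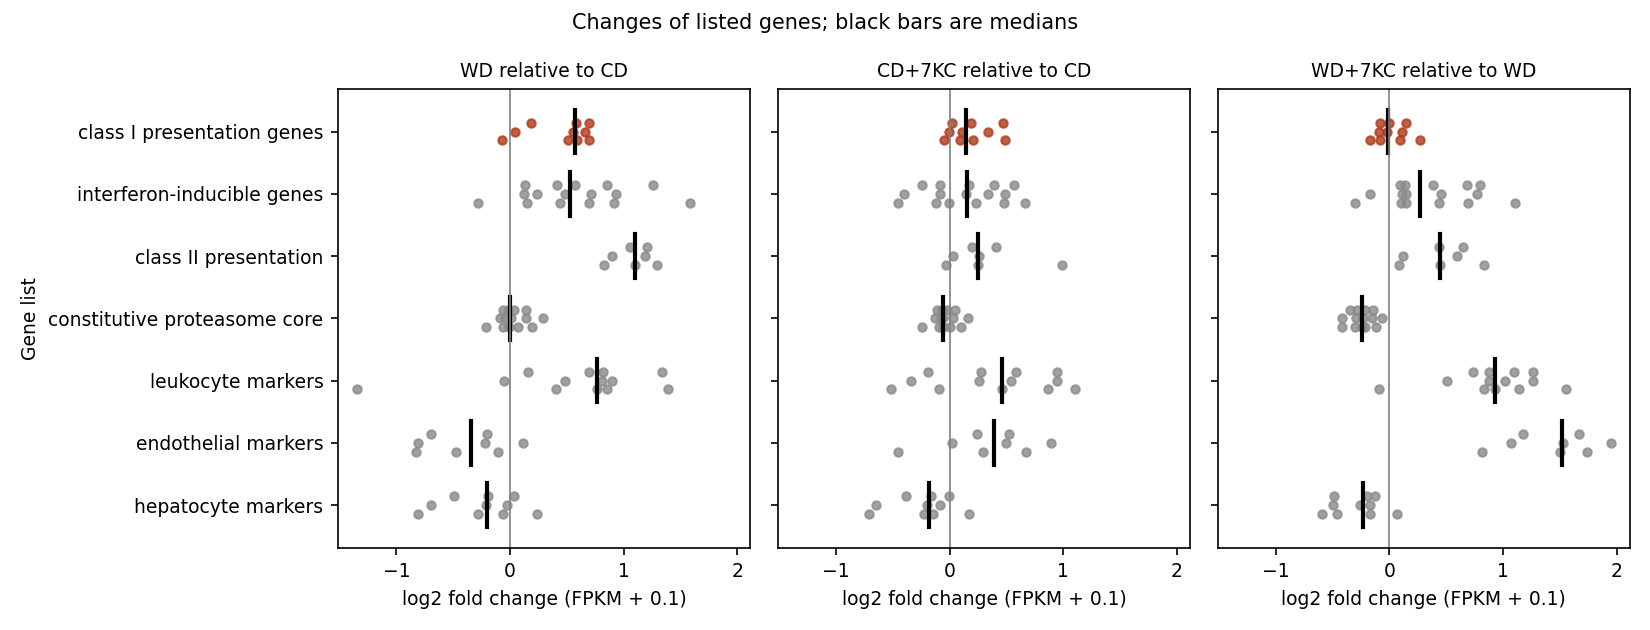
Log2 fold changes of single genes (points, at least 1 FPKM on average) in 7 gene lists for 3 comparisons between single libraries; black bars are medians. The class I genes (red) have medians of 0.57, 0.15 and -0.013 from left to right, and the endothelial markers -0.35, 0.39 and 1.52.

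The genes of MHC class II presentation, which antigen-presenting cells use for peptides taken up from outside, stood higher in the same libraries: 7 of 7 were above 1.5-fold higher in WD relative to CD (median 1.10). Their median in WD+7KC relative to WD was 0.44, from 0.83 for H2-DMb1 to 0.081 for H2-Eb1, and the median was 0.66 with equal sums. Position was looked at as well, leaving out only the 10 class I genes. Class II genes that lie in the stretch are therefore part of the counts, which are not separate from the class II values above. Between Tapbp and H2-D1 (chromosome 17, 33919478 to 35267497), 54 other genes had at least 1 FPKM on average, and in WD relative to CD 10 of them were above 1.5-fold higher and 2 lower, with a median log2 fold change of 0.19, where 9.22% and 7.55% of all genes with at least 1 FPKM in either library were. The numbers in WD+7KC relative to CD+7KC were 14 and 1 (13.5% and 8.75% of all such genes), in CD+7KC relative to CD 4 and 3 (4.92% and 3.44%), and in WD+7KC relative to WD 4 and 2 (9.15% and 3.42%).

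B2m was also the reference gene of the qRT-PCR in the study. Its highest value over its lowest was 1.14 across the 4 libraries (2508 to 2858 FPKM), or 1.33 after rescaling to equal sums. Among 12 other genes in use as references the same ratio ran from 1.04 to 2.06, and was 1.04 for Rplp0, 1.18 for Ppia and Gapdh, 1.33 for Ywhaz, 1.34 for Hprt, 1.39 for Rpl13a, 1.48 for Sdha, 1.60 for Gusb and Tbp and 2.06 for Actb. B2m thus had the second smallest ratio of 13 genes, and the fifth smallest after rescaling. Dividing by B2m lowered the log2 fold changes of the qRT-PCR genes by 0.19 in WD relative to CD and raised them by 0.023 in WD+7KC relative to WD. With equal sums B2m itself had 0.19 in WD+7KC relative to WD, so that dividing by it lowered the rescaled values instead. In the latter comparison Cpt1a had -0.24 without and -0.21 with division by B2m (-0.019 without division after rescaling), and Tgfb1, the highest, had 1.22 and 1.24, while Il6 was listed at 0 in all 4 libraries.

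The mean profile of the 10 genes, each centred on its own mean log2 value, was at -0.27, -0.089, 0.17 and 0.19 in the 4 libraries, lowest in CD. By Euclidean distance over the 4 libraries, Psmb9 and H2-D1 lay nearest to it and Nlrc5 farthest (0.097, 0.11 and 0.74). Among 6680 other genes with at least 5 FPKM on average, the 5 nearest were Vars, Slc48a1, Bag3, Lamtor1 and Snrpc, at distances of 0.021 to 0.057, and 44 genes were nearer than Psmb9. Vars was at 6.09, 6.92, 8.47 and 8.42 FPKM. A profile of 4 values is matched by many genes, and the likeness is given as a description.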

How the data were processed

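The authors prepared stranded mRNA libraries, sequenced 75-base single-end reads, mapped them to mm10 with TopHat2 2.0.13, Bowtie2 2.2.3 and SAMtools 0.1.19, computed FPKM with Cufflinks 2.2.1 and deposited them as 1 table of FPKM by gene symbol for each library. The gene annotation and the Cufflinks options are not given in the sources used here. Libraries were grouped by their titles, with 1 library in each of 4 groups, so no test was made. Log2 fold changes used a pseudocount of 0.1 FPKM for genes above 0 in either library, and counts used 1.5-fold and 2-fold. Depth was estimated from the steps of up to 6 reads in low values of 15426 genes with 1 RefSeq mRNA, using GENCODE vM21 transcript lengths minus 200 bases, and where a gene had several mRNAs the shortest was used. Intervals are without a pseudocount. Promoters came from RefSeq (GRCm38.p6). The genes, the lists and the tests were chosen with earlier results of these data known. The genes named are the 10 class I genes, from each other list the extremes in WD+7KC relative to WD, family counterparts and regulators set in advance, the reference genes and the 5 nearest profiles, of which some are not reported here; Psme1, H2-Q1, H2-Q7, Tapbpl, Calr, Canx, Usp18, S100a8 and Cd8a were added after their values were seen. Nrdc and Trac were not found among the symbols. The alternatives were a pseudocount of 1 or 0.01, 3 scalings and a filter of 1 FPKM. The code was tested on simulated data. Python 3.11.15, numpy 2.4.6, pandas 2.3.3, scipy 1.17.1 and matplotlib 3.10.9 were used.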

Additional observations from a re-analysis of the deposited data

Results flagged for a closer look

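With the deposited scaling, the point values of the change with 7KC had opposite signs under the diets in 4 of the 10 genes. In these 4 the counting interval of the difference lay off 0. Under WD the exact interval of the change itself included 0 in all 4, so that its sign was not resolved. It was -0.40 to 0.058 for Psmb8 and -0.46 to 0.29 for Nlrc5. H2-D1 had -0.002 (-0.043 to 0.039) and B2m -0.023 (-0.052 to 0.005). The share of all genes that meet this rule was not computed, so the count of 4 cannot be set against it. The opposite signs were lost in all 4 after rescaling to equal sums, where the changes under CD and WD were 0.52 and 0.046 for Psmb8, 0.50 and 0.12 for Nlrc5, 0.15 and 0.21 for H2-D1 and 0.13 and 0.19 for B2m. They were also lost for H2-D1 and B2m under the other scalings, but not for Psmb8 and Nlrc5. Psmb8 had 0.52 and -0.12 with upper quartile and 0.50 and -0.13 with median-ratio scaling. Nlrc5 had 0.50 and -0.040 with upper quartile and 0.48 and -0.047 with median-ratio scaling. The 95% intervals below are normal approximations from the estimated reads, and with 1 library per group the differences were not tested against the variation between mice. For Psmb8 the log2 fold change with 7KC was 0.48 under CD and -0.17 under WD, a difference of -0.65 (-0.99 to -0.32), and -0.48 (-0.81 to -0.14) when the libraries were rescaled to equal sums. For Nlrc5 it was 0.47 and -0.084, a difference of -0.55 (-1.04 to -0.064), or -0.38 (-0.87 to 0.10) after rescaling. For H2-D1 the difference was -0.11 (-0.17 to -0.050) and for B2m -0.11 (-0.15 to -0.068), and both turned to positive values after rescaling, 0.065 and 0.068.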

How the results depend on the processing

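In WD relative to CD the median log2 fold change of the 10 genes stayed between 0.52 and 0.60 under the 6 alternatives, and between 3 and 6 genes were above 1.5-fold higher, with Tap1, Psmb10 and Psmb9 near the threshold. In WD+7KC relative to CD+7KC rescaling to equal sums (TPM) raised the number above 1.5-fold from 3 to 5 (all genes, 17.5% to 23.8%), and the median ran from 0.33 to 0.55, the highest with equal sums. In WD+7KC relative to WD the median ran from -0.013 to 0.20, and the number of genes that were higher was 4 with the deposited values, 6 with upper quartile or median-ratio scaling and 10 after rescaling to equal sums, where 50.2%, 55.4% and 54.4%, and 73.0% of all genes were higher; the count past 1.5-fold was 0 throughout. In CD+7KC relative to CD the median ran from 0.14 to 0.19. Of 40 single log2 fold changes, 11 moved by more than the half-width of their counting interval under TPM, 4 under upper quartile and 3 under median-ratio scaling, and none under the pseudocounts or the filter. No paired analysis was possible because each group had 1 library.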
